A study of Mus musculus with 27 samples.

Results

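A set of 9 genes that mark or control epithelial identity was followed through RNA sequencing of mouse thyroid tumor cell lines: Cdh1, Epcam, Mpzl2, St14, Elf3, Grhl2, Foxa1, Esrp1 and Esrp2. The members were picked by name, and all 9 were present among the 33924 gene symbols of the count table. There were 27 libraries in 9 groups of 3. All tumor lines carried Braf(V600E), the mutant kinase allele, with a knockout (KO) of Arid1a, of Arid2 or of Smarcb1, or with no further KO (Braf lines). These 3 genes encode subunits of SWI/SNF, a complex that moves nucleosomes. Each of the 4 genotypes had 3 lines. Every line gave 1 library after 8 days with 300 nM CH5126766 (CKI), which inhibits both RAF and MEK, and 1 library with vehicle. The last group held 3 libraries marked wildtype (WT) and untreated, whose source is nevertheless given as a tumor line. Bovine TSH, the pituitary hormone that stimulates the thyroid, is named for the treatment in wording that leaves its use in the vehicle arm unclear. The lines were grown from digested tumors in serum-containing medium. The sources used here state no strain, age or promoter driving the alleles, nor whether a line is 1 clone.

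Epithelial cells are held together by adherens junctions, in which the E-cadherin encoded by Cdh1 binds its copies on neighbouring cells and links to catenins inside. A small set of transcription factors, among them Grhl2 and Elf3, keeps junction genes active, and the splicing factors Esrp1 and Esrp2 give many messages their epithelial form. Thyroid follicles are built from such an epithelium, and epithelial tumor cells can lose these genes together in the change called epithelial-mesenchymal transition.

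The promoters are shown because Epcam and Elf3 were low in nearly all KO lines while Foxa1 was low in Arid1a KO and Arid2 KO but not in Smarcb1 KO lines, so that their start regions can be read side by side. RefSeq windows upstream of the start were at hand for 3 of the 9 members. Each is printed 5′ to 3′ on the gene's own strand, with the 250 bases before the start, in build GRCm38.p6. Capitals mark matches, on either strand, to CAGGTG (an E-box that Zeb and Snail repressors can bind) and to TGTTTAC (a forkhead motif).
Epcam: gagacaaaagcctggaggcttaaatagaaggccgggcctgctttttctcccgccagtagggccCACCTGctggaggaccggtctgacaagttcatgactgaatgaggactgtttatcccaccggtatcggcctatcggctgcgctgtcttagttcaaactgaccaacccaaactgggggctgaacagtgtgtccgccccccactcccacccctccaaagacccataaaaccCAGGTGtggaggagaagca
Elf3: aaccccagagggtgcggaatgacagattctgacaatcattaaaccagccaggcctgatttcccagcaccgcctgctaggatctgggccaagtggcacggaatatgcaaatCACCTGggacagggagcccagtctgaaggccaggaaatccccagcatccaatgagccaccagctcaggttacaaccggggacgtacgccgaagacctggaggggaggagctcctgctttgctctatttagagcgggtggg
Foxa1: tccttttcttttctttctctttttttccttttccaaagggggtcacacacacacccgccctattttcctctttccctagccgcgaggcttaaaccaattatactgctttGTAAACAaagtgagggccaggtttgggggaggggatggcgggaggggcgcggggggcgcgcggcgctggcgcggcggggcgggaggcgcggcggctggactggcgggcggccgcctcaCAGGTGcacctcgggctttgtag
The Epcam window lies on the plus strand at chr17:87635729-87635978, the Elf3 window on the minus strand at chr1:135258473-135258722 and the Foxa1 window on the minus strand at chr12:57546112-57546361. CAGGTG occurred at positions -187 and -19 from the start in Epcam, at -140 in Elf3 and at -23 in Foxa1, counting the last base before the start as -1. Of all 32851 windows of this length, 20.2% held it. TGTTTAC occurred once, in Foxa1 at -141, and in 3.65% of all windows. AACCGGTT and AACCNGTT, motifs of the grainyhead family that includes Grhl2, and TATAAA were found in none of the 3 windows, against 0.146%, 2.09% and 13.6% of all windows. No printed matches overlapped, and a match describes letters, not binding.

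Total counts were between 18417255 and 27257703 per library, except for 2 CKI libraries of the Smarcb1 KO genotype, with 11684983 counts in BS53958 and 2884130 in BS53965. Levels are CPM, a gene's count over the scaled size of its library, given per library, or as mean ± SD over 3 lines. They compare libraries for 1 gene and are not corrected for gene length. A count of 0 allows up to 3 counts, and this floor, like the intervals on summed counts, covers counting error only. Changes are log2 ratios ± SE from edgeR with adjusted p-values over all genes tested, and they are set against the spread between lines. The fit of 1 mean per group takes the vehicle and CKI libraries of a line as independent, though they correlated. Each tumor line thus enters the estimate of this spread with both of its libraries, and the p-values do not allow for that. In vehicle, Smarcb1 had 0.0475, 1.16 and 0.172 CPM in Smarcb1 KO lines (BS53736, BS53958 and BS53965), against 71.5, 85.1 and 67.9 CPM in Braf lines. Arid1a was lower in Arid1a KO lines (log2 change -0.71 ± 0.17, edgeR adjusted p = 0.0325). Arid2 was not called in Arid2 KO lines (log2 change -0.05 ± 0.24, edgeR adjusted p = 0.968), so its counts give no check of that label. Of 9 thyroid follicular markers, 2 to 5 passed 1 CPM in the vehicle tumor lines. The WT libraries held 9 of 9, with summed levels of 229405 to 348034 CPM.

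In vehicle, Braf lines B47275 and B48051 expressed all 9 members above 1 CPM, and B52482 expressed 3 of 9 above that level (St14, Mpzl2 and Foxa1). The 9 KO lines expressed 1 to 3 members above 1 CPM, except Smarcb1 KO line BS53958 with 8. In Arid1a KO and Arid2 KO lines the members above 1 CPM were Cdh1, Foxa1 or Epcam, never more than 2 in a line. The Braf group was thus split between 2 lines with high levels and 1 line with low levels. In bulk RNA, fewer expressing cells and less RNA per cell cannot be told apart.

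**Figure D1:**
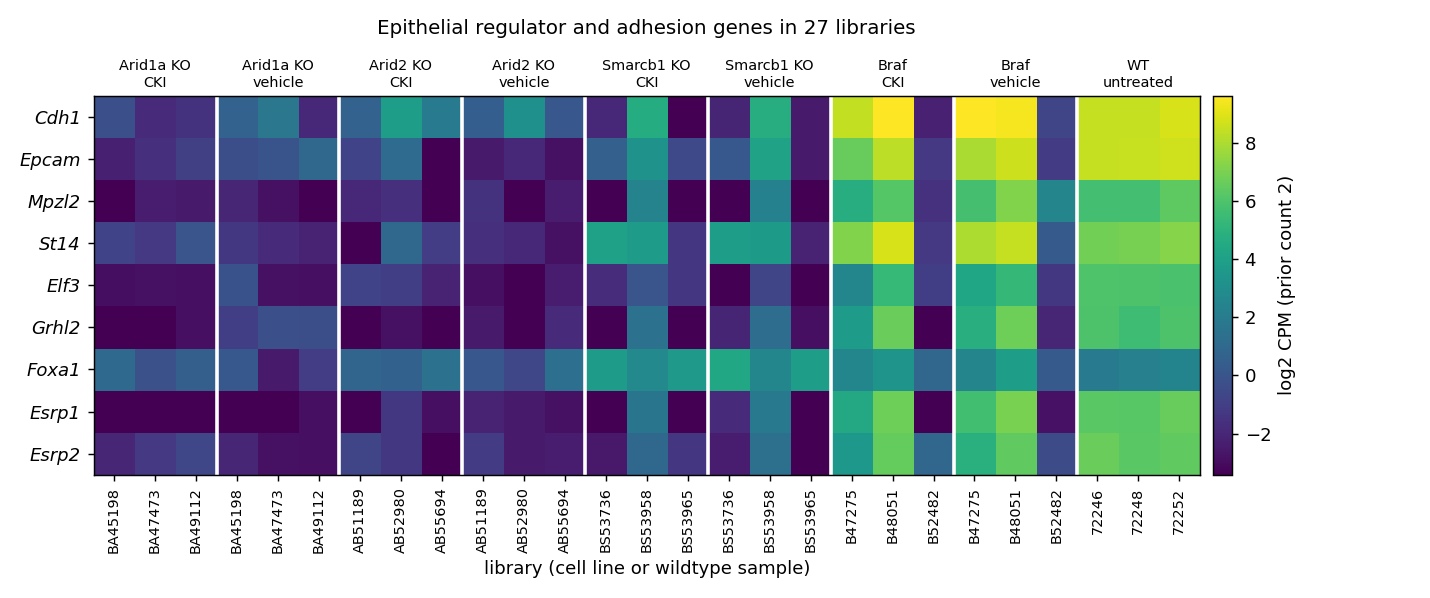
Level of each of the 9 genes (rows) in each of the 27 libraries (columns, grouped by genotype and treatment), as log2 CPM with a prior count of 2. The bright columns are Braf lines B47275 and B48051 and the 3 WT libraries, Smarcb1 KO line BS53958 is intermediate, and Foxa1 alone is high in all Smarcb1 KO libraries.

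Cdh1 had 1.5, 3.23 and 0.171 CPM in Arid1a KO lines BA45198, BA47473 and BA49112, 1.32, 8.71 and 1.0 CPM in Arid2 KO lines AB51189, AB52980 and AB55694, and 0.142, 26.3 and 0.0861 CPM in Smarcb1 KO lines BS53736, BS53958 and BS53965, against 774, 686 and 0.516 CPM in Braf lines B47275, B48051 and B52482. The values below keep this order of lines. Braf line B52482 thus lay within the range of the KO lines, and AB52980 kept Cdh1 at 1.19% of the mean of B47275 and B48051 with no other member above 1 CPM. Epcam, a cell adhesion molecule of epithelia, had 0.722, 0.897 and 1.79 CPM in Arid1a KO, 0.088, 0.167 and 0.0456 CPM in Arid2 KO and 1.04, 16.6 and 0.0861 CPM in Smarcb1 KO lines, against 250, 398 and 0.361 CPM in Braf lines. All 3 Arid1a KO lines were above B52482 for Epcam and all 3 Arid2 KO lines below it. Mpzl2, an adhesion protein of the immunoglobulin family, had 0.155, 0.0448 and 0 CPM in Arid1a KO, 0.264, 0 and 0.0911 CPM in Arid2 KO and 0, 4.80 and 0 CPM in Smarcb1 KO lines, against 54.4, 141 and 5.62 CPM in Braf lines. Mpzl2 was the member that B52482 kept best among the 8 other than Foxa1, and no KO line reached that Braf line.

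St14, the membrane protease matriptase, had 0.31, 0.179 and 0.128 CPM in Arid1a KO, 0.22, 0.167 and 0.0456 CPM in Arid2 KO and 14.0, 12.7 and 0.129 CPM in Smarcb1 KO lines, against 255, 357 and 1.13 CPM in Braf lines. Smarcb1 KO lines BS53736 and BS53958 thus kept St14 above Braf line B52482, while BS53965 was among the lowest. Elf3, an Ets factor of epithelia, had 0.826, 0.0448 and 0.0427 CPM in Arid1a KO, 0.044, 0 and 0.0911 CPM in Arid2 KO and 0, 0.533 and 0 CPM in Smarcb1 KO lines, against 18.9, 37.6 and 0.309 CPM in Braf lines. Elf3 stayed under 1 CPM in all 9 KO lines and in B52482. Grhl2, a grainyhead factor that acts on Cdh1 and claudin genes, had 0.413, 0.762 and 0.725 CPM in Arid1a KO, 0.088, 0 and 0.182 CPM in Arid2 KO and 0.142, 2.23 and 0.043 CPM in Smarcb1 KO lines, against 27.6, 107 and 0.155 CPM in Braf lines. The 3 Arid1a KO lines lay above B52482 for Grhl2, at 0.612% to 1.13% of the mean of B47275 and B48051.

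Foxa1, a forkhead factor that can bind closed chromatin, was low in Arid1a KO and Arid2 KO lines and in B52482 but not in Smarcb1 KO lines. It had 1.03, 0.0897 and 0.384 CPM in Arid1a KO, 1.01, 0.542 and 2.41 CPM in Arid2 KO and 21.2, 5.91 and 13.9 CPM in Smarcb1 KO lines, against 5.62, 14.8 and 1.13 CPM in Braf lines. The Smarcb1 KO lines covered 58.0% to 207% of the mean of B47275 and B48051. In Smarcb1 KO line BS53965, Foxa1 was the only member above 1 CPM. The splicing factor Esrp1 had 0, 0 and 0.0427 CPM in Arid1a KO, 0.132, 0.0834 and 0.0456 CPM in Arid2 KO and 0.19, 3.49 and 0 CPM in Smarcb1 KO lines, against 50.3, 126 and 0.0516 CPM in Braf lines. The 3 Arid1a KO vehicle libraries together held 1 Esrp1 count, against 3532 in the Braf vehicle libraries, a ratio of 3801-fold lower with an exact 95% counting interval of 682 to 150170. Braf line B52482 gave only 1 of these 3532 counts, so the ratio describes B47275 and B48051 and not B52482. Its relative Esrp2 had 0.155, 0.0448 and 0.0427 CPM in Arid1a KO, 0.352, 0.0834 and 0.0911 CPM in Arid2 KO and 0.0949, 2.57 and 0 CPM in Smarcb1 KO lines, against 28.5, 85.5 and 0.67 CPM in Braf lines. No KO line other than BS53958 reached B52482 for Esrp2.

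**Figure D2:**
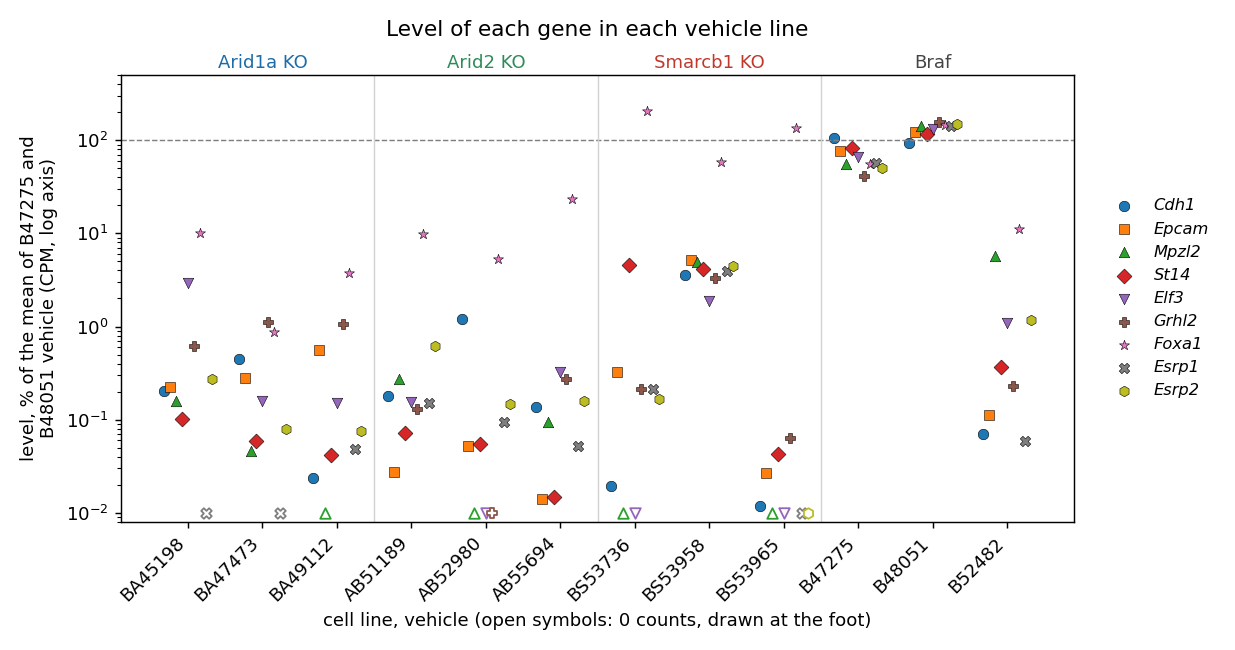
Level of each of the 9 genes in each vehicle line as a percent of its mean in Braf lines B47275 and B48051, on a log axis, with open symbols at the foot for a count of 0. In Smarcb1 KO line BS53958 the 8 genes other than Foxa1 lie close together, between 1.89% and 5.14%, while in the other KO lines they spread from 0 counts to 4.56%.

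Across genotypes in vehicle, 8 of the 9 members were lower in the mean of the 3 KO genotypes than in Braf lines, where 8.36% of 15634 genes tested were lower, 1.39% higher and 9.75% called in either direction. Among adhesion genes, the log2 change was -7.01 ± 1.67 for Cdh1 (edgeR adjusted p = 0.0126), -7.90 ± 1.46 for Epcam (0.00297) and -8.12 ± 1.52 for Mpzl2 (0.00317). It was -8.29 ± 1.41 for St14 (0.00186), -7.07 ± 1.21 for Elf3 (0.00193) and -6.94 ± 1.45 for Grhl2 (0.00599). For the splicing factors it was -8.77 ± 1.77 for Esrp1 (0.00577) and -7.32 ± 1.27 for Esrp2 (0.00213). Foxa1 did not pass the test (log2 change -1.78 ± 0.64, edgeR adjusted p = 0.0891) and passed it without B52482 (-2.29 ± 0.59). The median log2 change was -7.32 over the members and -0.02 over all genes tested.

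Against Braf lines in vehicle, 4 members were lower in Arid1a KO lines and none was higher, where 2.65% of all genes were lower, 0.979% higher and 3.63% called. The log2 change was -9.94 ± 2.46 for St14 (edgeR adjusted p = 0.0338), -9.92 ± 2.71 for Mpzl2 (0.0494), -8.82 ± 2.22 for Esrp2 (0.0370) and -3.83 ± 0.95 for Foxa1 (0.0340). For these 4 the libraries of Arid1a KO and Braf lines did not overlap, though Foxa1 was close (1.03 CPM in BA45198 against 1.13 CPM in B52482). Esrp1, which was not called, was parted only by 1 count in BA49112 (0.0427 CPM) against 1 count in B52482 (0.0516 CPM). That is under the floor of 3 counts and is no separation. The share of all genes without overlap was not counted, so the lack of overlap sets no member apart. The 5 members not called had log2 changes of -11.45 to -5.96 with edgeR adjusted p-values of 0.0650 to 0.128. The number called depended on single lines: it was 9 without Braf line B52482 (5.45% of all genes lower), 0 without B47275, B48051 or any one of the 3 Arid1a KO lines, and 2 without any one of the 3 Arid2 KO lines, which share the fit. Fibroblast markers moved with this comparison: 8 to 9 of 10 passed 1 CPM in Arid1a KO lines with summed levels of 1467 to 3921 CPM, against 2 to 7 of 10 and 6.03 to 256 CPM in Braf lines. Dcn (log2 change 7.08, edgeR adjusted p = 0.0196) and Col1a2 (7.64, edgeR adjusted p = 0.0431) were called higher, and no marker of the list was at 0 in all Arid1a KO lines. Their part in the result was not tested.

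In Arid2 KO lines 0 members were called in vehicle by edgeR, where 0.0512% of all genes were called. All 9 had an unadjusted p under 0.05, as had 12.4% of all genes, and DESeq2 called 8 members and 3.46% of all genes. The log2 changes ran from -10.97 (Epcam) to -2.43 (Foxa1), with edgeR adjusted p-values of 0.105 to 0.272. Without B52482, 7 members were lower, all but Cdh1 and Foxa1, and 2.13% of all genes. In Smarcb1 KO lines 2 members were lower in vehicle and none was higher, where 11.2% of all genes were lower, 6.93% higher and 18.1% called. The log2 change was -6.70 ± 1.90 for Elf3 (edgeR adjusted p = 0.0225) and -5.42 ± 1.84 for Esrp2 (0.0487). The other 6 members with negative changes lay between -5.79 and -4.52, and Foxa1 had a log2 change of 0.91 ± 0.84 (edgeR adjusted p = 0.479). The number called was 7 without Braf line B52482 (10.3% of all genes lower), 6 without Smarcb1 KO line BS53958, 0 without BS53736 or BS53965, and 1 without any other single line. Fibroblast markers summed to 23.1 to 68.4 CPM in Arid2 KO and 6.64 to 667 CPM in Smarcb1 KO lines in vehicle, against 6.03 to 256 CPM in Braf lines. In Smarcb1 KO lines the collagen genes Col6a3 (log2 change -9.87, edgeR adjusted p = 0.00796), Col1a1 (-6.70, edgeR adjusted p = 0.0226) and Col3a1 (-5.37, edgeR adjusted p = 0.0445) were lower, with Col6a3 at 0 in all 3. Endothelial markers moved there too: they summed to 13.1, 0.291 and 666 CPM in BS53736, BS53958 and BS53965, against 1.34 to 3.20 CPM in Braf lines. Pecam1 (4.86, edgeR adjusted p = 0.0127) and Cdh5 (9.25, edgeR adjusted p = 0.0368) were called higher, and Cdh5 had 659 CPM in BS53965 and 0 in BS53958. The part of these markers was not tested. The 3 KO comparisons share the Braf libraries.

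**Figure D3:**
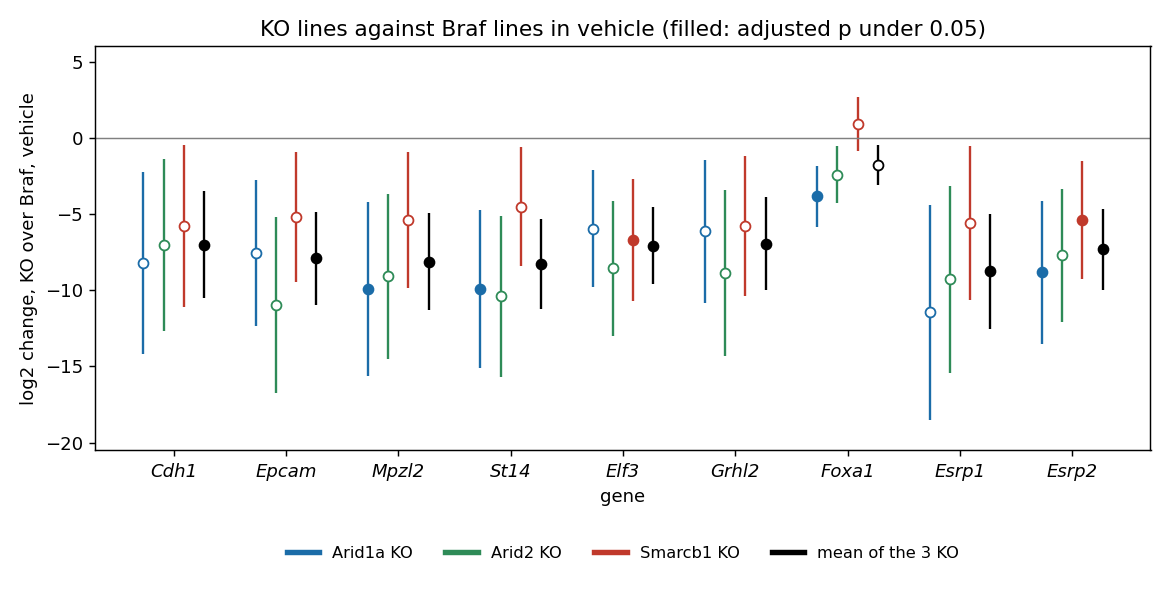
Fitted log2 change with its 95% interval for each of the 9 genes in each KO genotype, and in the mean of the 3, over Braf lines in vehicle, with filled points at an edgeR adjusted p under 0.05. The means of the 3 KO (black) are filled for all genes but Foxa1, whose Smarcb1 KO point lies at 0.91, above 0.

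Smarcb1 KO line BS53958 differed from all other KO lines in keeping 8 of the 9 members above 1 CPM. Its 8 members other than Foxa1 were at 1.89% to 5.14% of the mean of B47275 and B48051 in vehicle (median 4.06%), and at 3.0% to 5.40% in the CKI library of the same line (median 3.45%). Foxa1 was at 58.0% and 62.9% in these libraries. Other epithelial genes gave a similar value there: of 53 genes of 4 epithelial lists, 37 had at least 10 CPM in both Braf lines, and in vehicle 32 of these 37 were at 1% to 10% in BS53958, with a median of 4.51%. The exceptions included Pkp2 at 147% and Klf5 at 144%. They were not particular to BS53958: Pkp2 was at 196% and 212% and Klf5 at 18.5% and 250% in BS53736 and BS53965. In the other Smarcb1 KO lines the median of the 37 was 0.402% (BS53736) and 0.292% (BS53965). Smarcb1 itself had 1.16 CPM in BS53958, against 0.0475 and 0.172 CPM in these 2 lines, and the part of this remainder was not tested. The line comparison rests on 1 line and its 2 libraries, and has no test.

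Braf line B52482 had a different pattern. Its 8 members other than Foxa1 were at 0.0586% to 5.77% of B47275 and B48051 in vehicle, with Mpzl2 highest, and the 37 epithelial genes ranged from 0 to 88.3% with a median of 2.88%. A list of 11 mesenchymal genes and factors summed to 26549 CPM in B52482, against 12801 CPM in B47275 and 5668 CPM in B48051. Most of this was fibronectin, Fn1, with 19406 CPM in B52482, against 11654 and 5537 CPM. Zeb1, a repressor of Cdh1, had 174 CPM in B52482, against 54.9 CPM in B47275 and 5.10 CPM in B48051. The intermediate filament gene Vim had 6200 CPM in B52482, against 703 and 13.5 CPM. In vehicle the list summed to 16244 to 18882 CPM in Arid1a KO, 11936.5 to 18644 CPM in Arid2 KO and 4738 to 7699 CPM in Smarcb1 KO lines. The sum of B47275 thus lay within the Arid2 KO range. That of B48051 lay below all Arid1a KO and Arid2 KO lines and within the Smarcb1 KO range. B48051 also had the lowest levels of Vim and Zeb1 among the Braf lines. The KO lines held 32.4 to 300 CPM of Zeb1, a range that included B47275 and B52482 but not B48051. Cdh1 had 774 CPM in B47275, 686 CPM in B48051 and 0.516 CPM in B52482. The part of Zeb1 in these levels was not tested.

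Under CKI, 1 call was made over the members in the 3 comparisons of KO with Braf lines. Cdh1 had 25.2 CPM in Smarcb1 KO line BS53958 and 0.124 CPM in Braf line B52482, so ranges overlapped there as in vehicle. In Arid1a KO against Braf under CKI, 0 members were called by edgeR, where 0.736% of all genes were called. All 9 had an unadjusted p under 0.05 (14.6% of all genes), DESeq2 called 8 (6.01% of all genes), and the log2 changes ran from -12.82 (Esrp1) to -2.08 (Foxa1). Esrp1 held 0 counts in the 3 Arid1a KO libraries, against 3132 counts in the Braf libraries, at least 976.6-fold lower with a floor of 3 counts over the group. Braf line B52482 also held 0 Esrp1 counts under CKI, so all of the Braf counts came from B47275 (607) and B48051 (2525). The ratio thus does not describe B52482. In Arid2 KO against Braf under CKI, 0 members were called by edgeR (0.064% of all genes), 8 had an unadjusted p under 0.05 (10.5% of all genes), DESeq2 called 6 (2.71% of all genes), and the log2 changes ran from -10.85 to -1.59. In Smarcb1 KO against Braf under CKI, Esrp2 was lower (log2 change -5.52 ± 1.89, edgeR adjusted p = 0.0430), where 13.1% of all genes were lower and 23.1% were called. Esrp2 had 0.0819, 1.81 and 0.297 CPM in Smarcb1 KO libraries, against 11.5, 93.1 and 1.74 CPM in Braf libraries, so the groups overlapped. Foxa1 averaged 10.5 ± 3.61 CPM in the Smarcb1 KO libraries, against 5.87 ± 4.08 CPM in Braf libraries (SD, n = 3 each), a log2 change of 0.83 ± 0.84 (edgeR adjusted p = 0.498). Esrp2 was not called without the shallow CKI libraries of BS53958 and BS53965, a fit in which BS53736 alone stood for Smarcb1 KO under CKI and was assumed to vary like the other groups. Without B52482, the members lower under CKI were 8 in Arid1a KO (3.43% of all genes lower), 5 in Arid2 KO (1.23%) and 6 in Smarcb1 KO lines (11.7%). Without BS53958, the counts for Arid1a KO and Smarcb1 KO under CKI were 1 and 4, and without any other single line but AB55694 that for Smarcb1 KO was 0.

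No member was called for its response to CKI. Between CKI and vehicle, edgeR called 0 members in Braf, Arid1a KO, Arid2 KO and Smarcb1 KO lines and 0 in the mean of the 4 genotypes, and 0 had an unadjusted p under 0.05. The share of all genes called was 0.0% in Braf, 13.9% in Arid1a KO, 0.141% in Arid2 KO and 0.032% in Smarcb1 KO lines. In the mean of the 4 genotypes it was 27.2%, with 13.6% lower and 13.6% higher. DESeq2 also called 0 members in each of them. In Braf lines the log2 change of Cdh1 was -0.39 with a 95% interval of -4.72 to 3.94, an interval that spans changes in either direction. The differences between the CKI response of each KO genotype and that of Braf lines gave 0 members called and 0.0% of all genes, with 0 members at an unadjusted p under 0.05 and 0 called by DESeq2.

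Because the same lines received both treatments, a fit with the cell line as a replicate block called more members, and also more genes in all: 32.3% in Arid1a KO, 6.27% in Arid2 KO and 42.9% in the mean of the 4 genotypes. It called 3 of 9 members in Arid1a KO, a share close to that of all genes, 1 of 9 in Arid2 KO and 2 of 9 in the mean, a share under that of all genes. In Arid1a KO lines under CKI, Grhl2 was lower (log2 change -4.99 ± 1.09, edgeR adjusted p = 0.00723), Epcam was lower (-2.14 ± 0.54, 0.0140) and Foxa1 was higher (1.72 ± 0.43, 0.0130). Grhl2 had 0, 0 and 0.0425 CPM under CKI, against 0.413, 0.762 and 0.725 CPM in vehicle, a summed 1 against 42 counts. Epcam had 0.113, 0.232 and 0.425 CPM under CKI, against 0.722, 0.897 and 1.79 CPM in vehicle. Foxa1 had 1.96, 0.788 and 1.36 CPM under CKI, against 1.03, 0.0897 and 0.384 CPM in vehicle. Each of these changes had the same sign in 3 of 3 lines, at levels from 0 to 1.96 CPM. Many of these levels rest on few counts, such as 3, 5 and 10 for Epcam under CKI and 2 for Foxa1 in BA47473 vehicle. In Arid2 KO lines the block called Epcam higher (log2 change 2.87 ± 0.72, edgeR adjusted p = 0.0436), with 0.475, 2.10 and 0 CPM under CKI, against 0.088, 0.167 and 0.0456 CPM in vehicle, so AB55694 went the other way. Fibroblast markers in Arid1a KO lines summed to 2233 to 7210 CPM under CKI, against 1467 to 3921 CPM in vehicle, and in Arid2 KO lines to 590 to 1340 CPM under CKI, against 23.1 to 68.4 CPM in vehicle. Skeletal muscle markers in AB52980, the line with the highest Epcam under CKI, summed to 1315 CPM under CKI, against 129 CPM in vehicle, and in the other Arid2 KO lines to at most 2.74 CPM. The part of these markers was not tested. In the mean of the 4 genotypes the block called Foxa1 higher (0.55 ± 0.19, edgeR adjusted p = 0.0396) and Grhl2 lower (-2.05 ± 0.55, edgeR adjusted p = 0.0128). Neither mean describes all genotypes. Without the block, the log2 change of Grhl2 was -0.25 in Braf and 0.24 in Smarcb1 KO lines, and that of Foxa1 was -0.29 and -0.37. In Arid2 KO lines Grhl2 held a summed 1 count under CKI, against 6 in vehicle.

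Within single lines the highly expressing ones can be read most precisely. The differences are log2 ratios of CPM after 0.5 CPM was added to each level, which shrinks them for genes at low levels. In B47275, 8 of the 9 members were lower under CKI, with a median log2 difference of -1.20 and a range of -1.62 (Elf3) to 0.06 (Foxa1). Cdh1 had 336 CPM under CKI in this line, against 774 CPM in vehicle. In B48051, 5 members were lower and 4 higher, with differences of -0.96 (Mpzl2) to 0.35 (St14). In BS53958, whose levels were much lower than those of B47275 and B48051, 4 were lower and 5 higher, from -0.75 (Epcam) to 0.44 (Elf3). Elf3 there rested on 11 counts in each library, with 0.905 CPM under CKI, against 0.533 CPM in vehicle. Foxa1 was higher under CKI in 7 of the 10 lines with at least 10 counts in both libraries. These lines have 1 library per treatment, so the differences carry no test.

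**Figure D4:**
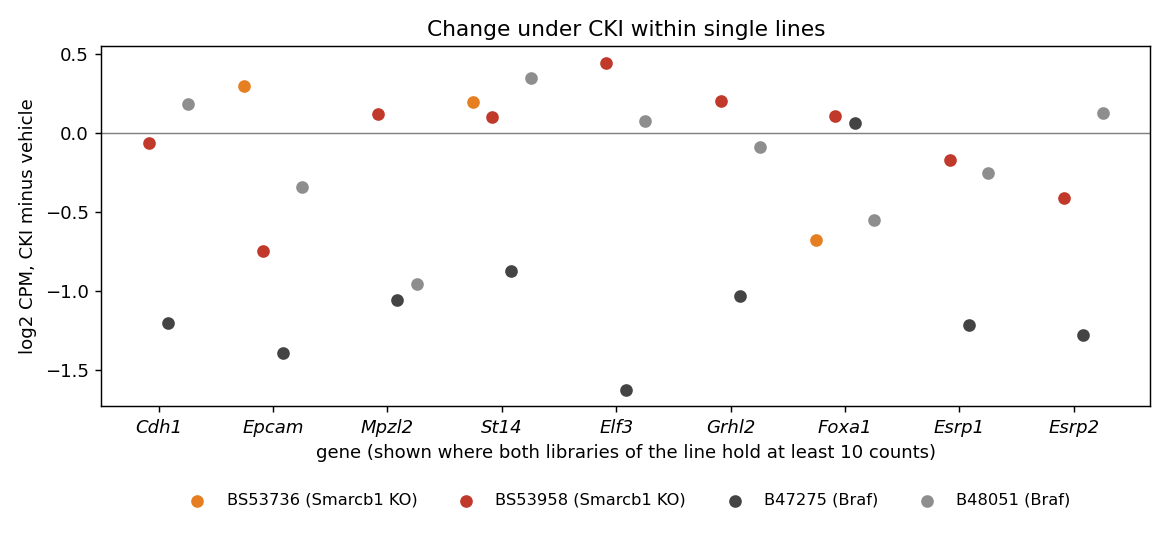
Difference in log2 CPM between CKI and vehicle within 4 lines, after 0.5 CPM was added to each level. It is shown for each gene with at least 10 counts in both libraries of the line. In Braf line B47275 all genes but Foxa1 lie below 0, between -1.62 and -0.87, whereas B48051 and BS53958 scatter around 0.

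Against the WT libraries, Braf lines in vehicle showed no called member, where 46.5% of 16821 genes tested were called. The log2 changes ran from -1.71 ± 1.33 (Elf3, edgeR adjusted p = 0.306) to 0.67 ± 1.52 (St14, edgeR adjusted p = 0.739), 0 had an unadjusted p under 0.05, and DESeq2 called 0. Elf3 had 18.9, 37.6 and 0.309 CPM in Braf lines, against 64.1, 62.3 and 59.2 CPM in WT libraries, with no overlap. Cdh1 averaged 487 ± 423 CPM in Braf lines and 385 ± 55.2 CPM in WT libraries (SD, n = 3 each), and Epcam 216 ± 201 CPM in Braf lines and 376 ± 23.4 CPM in WT libraries. The spread among Braf lines was thus the larger one for both. Markers of other tissues differed as well. In Braf vehicle lines 2 to 7 of 10 fibroblast markers passed 1 CPM, against 10 of 10 in WT libraries, with summed levels of 6.03 to 256 CPM in Braf lines and 2156 to 4186 CPM in WT. Adipocyte and skeletal muscle markers passed 1 CPM for 0 of 5 each in Braf lines, against 5 of 5 each in WT. Endothelial markers summed to 1.34 to 3.20 CPM in Braf lines, against 524 to 784 CPM in WT, where 7 of 7 passed 1 CPM. What these markers add to the WT levels of the 9 genes was not tested, and tissue type and genotype cannot be told apart in this comparison.

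Ordered by mean level over the 9 groups, most neighbouring groups overlapped. For Cdh1, Epcam, Mpzl2 and Esrp2, all 8 pairs of neighbours had overlapping ranges. Elf3 separated between Braf vehicle and WT, St14 between Smarcb1 KO under CKI and WT, and Grhl2 between Arid1a KO and Arid2 KO in vehicle. St14 in the Arid1a KO groups was parted only by 0.324 CPM under CKI against 0.310 CPM in vehicle. Esrp1 in Arid2 KO and Arid1a KO vehicle lines was parted only by 1 count in AB55694 (0.0456 CPM) against 1 count in BA49112 (0.0427 CPM). That is under the floor of 3 counts and is no separation. The share of all genes with separated neighbours was not counted. Foxa1 was highest in Smarcb1 KO (13.7 ± 7.63 CPM in vehicle, SD, n = 3) and separated only between the Arid2 KO lines under CKI and WT. For the other 8 members the 3 highest means were those of Braf lines in vehicle, Braf lines under CKI and WT.

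Other epithelial genes moved with the members in the mean of the 3 KO genotypes against Braf in vehicle. Of 23 junction and cytokeratin genes tested, 20 were lower and 0 higher, with a median log2 change of -5.70, against -0.02 over all genes. They included Cgn, the tight junction protein cingulin (-5.48, edgeR adjusted p = 0.000922), the cornified envelope protein gene Evpl (-5.16, edgeR adjusted p = 0.00103), the tricellular junction genes Lsr (-5.70, edgeR adjusted p = 0.00134) and Marveld2 (-7.08, edgeR adjusted p = 0.00135). Of 8 membrane proteases and their inhibitors, 6 were lower and 0 higher (median -7.24), among them Prss8, the prostasin that matriptase activates (-7.03, edgeR adjusted p = 0.00522), and Spint1, the inhibitor of matriptase (-8.16, edgeR adjusted p = 0.00328). Of 9 vesicle and polarity genes, 7 were lower and 0 higher (median -3.88), including Llgl2 (-3.88, edgeR adjusted p = 0.000767) and Rab25 (-7.34, edgeR adjusted p = 0.00258). Of 11 further epithelial transcription factors, 4 were lower and 0 higher (median -3.78), among them Ehf, a relative of Elf3 (-9.95, edgeR adjusted p = 0.00366), Grhl3 (-3.98, edgeR adjusted p = 0.0258) and Trp63 (-4.00, edgeR adjusted p = 0.0464). The lists were chosen with results of these lines known, and their counts are no independent evidence.

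Of 8 catenins and other partners of E-cadherin tested, 4 were lower and 0 higher (median -0.60): plakoglobin Jup (-2.34, edgeR adjusted p = 0.000895), the nectin genes Pvrl4 (-6.42, edgeR adjusted p = 0.00501) and Pvrl2 (-1.64, edgeR adjusted p = 0.0114), and beta-catenin Ctnnb1 (-0.53, edgeR adjusted p = 0.0191). Among 9 paralogs of the members, 4 were lower and 0 higher, among them Mpzl3, Elf4 and Cdh16. In Arid1a KO lines alone, the Mpzl2 relative Mpzl1 was higher (2.95 ± 0.46, edgeR adjusted p = 0.00356), with 736, 666 and 304 CPM, against 38.1, 58.6 and 125 CPM in Braf lines, with no overlap. Elf4, the Ets paralog of Elf3, was lower in Smarcb1 KO lines (-5.42 ± 0.66, edgeR adjusted p = 9.47e-05), with 0.332, 0.921 and 1.72 CPM, against 24.6, 58.3 and 44.9 CPM in Braf lines.

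Genes next to members on their chromosomes were read in the same comparison. Of 15 immediate neighbours tested in the mean of the 3 KO genotypes against Braf, 2 were lower and 0 higher, where 8.36% of all genes were lower. Cdh3, the P-cadherin gene beside Cdh1, fell by 6.16 on the log2 scale (edgeR adjusted p = 0.00550), and Mpzl3, beside Mpzl2, fell by 2.93 (edgeR adjusted p = 0.000913). Both are relatives of their neighbour. Calm2, beside Epcam, had a log2 change of 0.10 (edgeR adjusted p = 0.826).

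The genes whose pattern over the 24 tumor line libraries was most like the median pattern of the members, among 10274 genes with a mean log2 CPM of at least 2, included Apobr, Pcyt1b, Slc4a11, Krt19, Mpzl3, Arhgef3 and Srd5a1. Among the 8 nearest, the root mean square difference from that pattern was at most 2.36 in log2 units. No member itself reached that minimum level, since the highest mean was 1.70 (Cdh1). With no minimum, a setting chosen after seeing the data, the 8 nearest of 15625 genes were Ap1m2, Ripk4, Cldn7, Ildr1, Rab25, Pkp3, Tmprss2 and 2310007B03Rik, with differences of 0.47 to 0.85, and 0 genes were shared with the first 8. Among the members, Esrp1 lay nearest to the median pattern (0.49) and Foxa1 farthest (2.95). All of these values share the same libraries and are a description.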

How the data were processed

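RNA was extracted with TRIzol, and the sequencing libraries came from a TruSeq kit, per the labels' protocols. The submitters' processing notes name STAR 2.4, HTSeq 0.6.1, DESeq2 and the mm9 build, with no role for each, and nothing in the sources used here states the annotation, the strand setting or a filter. The deposited table holds the authors' raw counts per gene symbol. All 27 columns were mapped to samples by title, and 0 columns were left without a sample.

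The analysis used R 4.3.3 and edgeR 4.0.16 (limma 3.58.1): filterByExpr by group, TMM scaling, 1 mean per group, quasi-likelihood F test, Benjamini-Hochberg adjustment over all genes tested and calls at an adjusted p under 0.05. The 24 tumor line libraries shared 1 fit of 15634 genes, and Braf against WT came from a fit of all 27 libraries with 16821 genes. SEs come from the F statistic, so they and the intervals are approximate. CPM use TMM-scaled library sizes. The 9 members, the 17 gene lists (144 of 150 entries found), the comparison of single lines with B47275 and B48051, and the alternatives were chosen with earlier results of these data known. The text names all 9 members, the targeted genes, up to 4 called genes per list in order of adjusted p, and the 8 genes nearest in profile, except that some genes these rules pick are not reported here. Elsewhere single genes were chosen after their values were seen (Zeb1, Vim, Fn1, Pkp2, Klf5 and Calm2).

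The same lines received CKI and vehicle. After group means were removed, the 2 libraries of a line correlated across genes with r between 0.259 and 0.773 in all 12 lines, so the line was used as a replicate block, leaving 8 residual degrees of freedom. Other alternatives were RLE size factors, DESeq2 1.42.0, no filter, a minimum of 1 CPM in 6 or more libraries, a fit of the compared groups alone, all 27 libraries, each line left out in turn, and the CKI libraries of BS53958 and BS53965 left out. Other lists held markers of leukocytes, C cells, parathyroid and respiratory or stratified epithelium. Summed levels in Braf vehicle lines against WT were 3.18 to 4.64 against 269 to 432 CPM for leukocytes, 6.19 to 31.1 against 1989 to 3698 CPM for C cells, 0 to 0.461 against 181 to 2369 CPM for parathyroid and 0.774 to 63.4 against 0.902 to 31.0 CPM for respiratory or stratified epithelium.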

Additional observations from a re-analysis of the deposited data

How the results depend on the processing

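Between KO and Braf lines the direction of every called member was kept. Over 15 called changes and 269 alternatives, 208 kept the call, 61 lost it and 0 reversed. The count for the mean of the 3 KO genotypes stayed at 7 to 9 of 9 under every alternative in which all 9 were tested, and was 7 of 8 with the stricter filter, which removed Elf3. The counts for single genotypes moved. In vehicle, the Arid1a KO count of 4 was 9 with DESeq2, 7 with all 27 libraries, 3 with no filter, 0 with only the compared groups and 0 to 9 with single lines left out. The Arid2 KO count of 0 was 8 with DESeq2 and 0 to 7 with lines left out. The Smarcb1 KO count of 2 was 6 with DESeq2, 3 with all 27 libraries, 1 with no filter, 1 with the stricter filter (which removed Elf3), 0 with only the compared groups and 0 to 7 with lines left out. Under CKI, the Arid1a KO count of 0 was 8 with DESeq2, 3 with all 27 libraries and 0 to 8 with lines left out, and the Arid2 KO count of 0 was 6 with DESeq2 and 0 to 5 with lines left out. The Smarcb1 KO count of 1 was 2 with RLE, 6 with DESeq2, 2 with all 27 libraries, 0 with no filter, 0 with only the compared groups, 0 without the CKI libraries of BS53958 and BS53965 (1 library left in that group), and 0 to 6 with lines left out. The fits with fewer groups have fewer samples, the stricter filter tests fewer members, and for the rest the cause was not tested. With the cell line as a replicate block, the CKI counts were 3 in Arid1a KO, 1 in Arid2 KO and 2 in the mean of the 4 genotypes, each against 0 without it, and no other CKI count changed. Counts for CKI in Braf and Smarcb1 KO, for differences of CKI responses and for Braf against WT were 0 throughout. RLE size factors moved the median of all genes by -0.16 at most. Levels under 1 CPM rest on few counts, which limits the order of the low lines.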

Other observations

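Some genes related to the 9 members passed the test for CKI against vehicle in the mean of the 4 genotypes. There 27.2% of all genes were called, with 13.6% higher and 13.6% lower. The genes named here were picked from their lists because they were called. They do not show that relatives of the members respond more often than genes at large. Cdh3, the P-cadherin gene, was higher (log2 change 2.60, edgeR adjusted p = 0.0411), as were Cdh16, the kidney-specific cadherin gene that thyroid follicular cells also express (4.85, edgeR adjusted p = 0.00670), Grhl1, a paralog of Grhl2 (1.92, edgeR adjusted p = 0.0136), and the polarity gene Llgl2 (1.20, edgeR adjusted p = 0.0229). The catenin genes Ctnna1 (0.57, edgeR adjusted p = 0.00278) and Ctnnd1 (0.42, edgeR adjusted p = 0.0178) and N-cadherin, Cdh2 (0.56, edgeR adjusted p = 0.0397), were higher too. Prss22, an epithelial serine protease gene, was lower (-4.85, edgeR adjusted p = 0.00198). Of 23 junction and cytokeratin genes, 2 were higher and 0 lower, with a median log2 change of 0.01, against 0.032 over all genes tested. Fibroblast markers moved in the same comparison, with 4 of 10 higher, among them Col1a1 (5.30, edgeR adjusted p = 0.000598) and Dcn (2.95, edgeR adjusted p = 0.00527), and so did the thyroid genes Tg (4.35, edgeR adjusted p = 0.000866) and Tshr (4.61, edgeR adjusted p = 0.00298).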
